A study of Mus musculus with 12 samples.

Results

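The core circadian clock genes were followed in the hearts of 12 mice, as 10 genes chosen by name: Arntl, Clock, Npas2, Per1, Per2, Per3, Cry1, Cry2, Nr1d1 and Nr1d2. Each was found by its gene symbol in the platform annotation, each had 1 probe set, and all 10 of 10 were measured among 19505 genes. The mice formed 3 groups of 4, all labelled 6 months, which may be an age or a duration. Strain and sex are not stated. With 1 mouse per array, p-values set group differences against the spread between arrays of different mice. NC mice had vehicle injections for 5 days and were not made diabetic. DM mice were injected for 5 days with streptozotocin, which kills beta cells of the pancreas, were selected 2 weeks afterwards by a fasting glucose of 16.7 mM or more, and are labelled untreated. DM_AngIV mice were made diabetic in that way and received angiotensin IV, which is cut from the pressor peptide angiotensin II, by infusion between weeks 8 and 24, at a daily dose of 2.88 mg/kg that the labels call high. The diabetes is therefore chemically induced, and no group of infused mice without diabetes was among these samples. The values are log2 expression values from single-colour arrays, 1 array per mouse.

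The clock is a feedback loop of transcription. BMAL1, the protein of Arntl, pairs with CLOCK or its close relative NPAS2, and the pair switches on genes through E-box sequences. Among those genes are the period genes Per1, Per2 and Per3 and the cryptochromes Cry1 and Cry2, whose proteins return to block BMAL1 and CLOCK. Nr1d1 and Nr1d2, which encode the nuclear receptors REV-ERB alpha and beta, are also switched on by the pair and in turn silence Arntl through elements that they share with the ROR receptors. In heart muscle this loop runs in the cardiomyocytes themselves and gives a daily rhythm to metabolism and electrical activity. Clock transcripts rise and fall over the day, so a level is tied to the hour of sampling, and the hour at which each heart was taken is not given in the sources used here. In myocardium as a whole, fewer cells that express a gene and less RNA per cell cannot be told apart.

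Ventricular muscle transcripts were abundant on all arrays, with the mean of 8 ventricular cardiomyocyte markers between 11.06 and 11.28 on the log2 scale. Atrial transcripts set some arrays apart. The atrial light chain gene Myl7 was above background in 2 NC arrays (10.08 and 7.90) and in 3 DM arrays (8.86, 9.68 and 8.10), while in all 4 DM_AngIV arrays it lay between 3.53 and 3.94. The mean of 5 atrial markers was 5.11 to 8.58 in NC, 4.55 to 8.11 in DM and 4.96 to 5.36 in DM_AngIV, and 4 of the 5 were above background on some array, Bmp10 on none. Background here means 4.96, the 95th percentile of 246 reporter control probe sets, and a gene counts as above background in a group if any of its arrays exceeds that value. Where 1 of the groups compared was not above background, its fold is a lower bound set against 4.96; where both were not, folds are left out. Over the 9 lists of cell type markers, 0 markers passed the test in any comparison, where 0.0154% of all genes passed in DM against NC, 0% in DM_AngIV against DM and 1.02% in DM_AngIV against NC, so this count does not show that the cell makeup was alike. The mean of 5 macrophage markers was 5.68 to 6.06 in NC, 5.74 to 6.91 in DM and 5.78 to 6.55 in DM_AngIV, and its part in the results was not tested. The mean of 5 smooth muscle and pericyte markers was 7.86 in NC replicate 1 and 6.42 to 7.03 in the other NC arrays. It was 6.32 to 6.93 in DM and 6.75 to 7.23 in DM_AngIV. Of these markers, Rgs5 went the other way and was lowest in NC replicate 1 (7.91). The part of this signal was not tested either. The part of the atrial tissue in the clock gene results was measured only by leaving out those arrays and by a fit with the atrial marker mean as a covariate, both added after seeing the data.

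In DM_AngIV hearts, transcripts of the activators Arntl and Clock were lower than in NC, and those of Per2, Per3, Cry2 and Nr1d2 higher. These 6 of the 10 genes passed the test (limma with Benjamini-Hochberg adjustment over all genes, threshold 0.05), 4 of them higher and 2 lower, where 1.02% of all genes passed in either direction, 0.728% higher and 0.287% lower. In untreated diabetic hearts, compared as DM against NC, Arntl alone passed, where 0.0154% of all genes did; 7 of the 10 and 8.95% of all genes had an unadjusted p below 0.05. In DM_AngIV against DM 0 of the 10 passed, as did 0% of all genes, while 7 of the 10 and 7.48% of all genes had an unadjusted p below 0.05. All these comparisons share arrays, so they are not separate evidence. The 10 genes were chosen with earlier results of these data known, so their counts are not independent of the data.

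**Figure D1:**
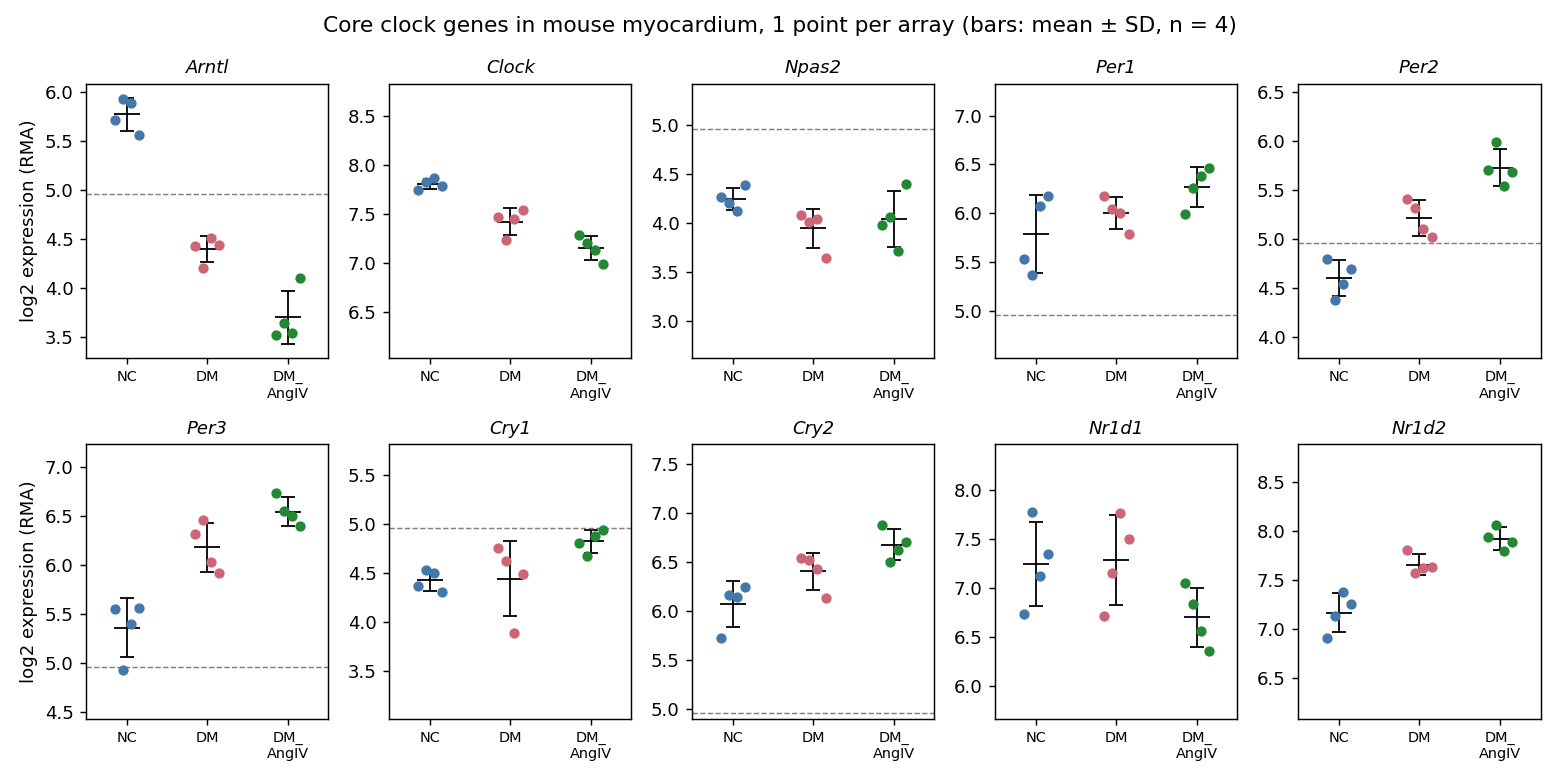
Log2 expression (y axis; each panel spans the same number of log2 units) of the 10 core clock genes in each array, by group (x axis), with bars for the mean ± SD of 4 mice and a dashed line at the background of 4.96 where it falls within the panel. Arntl and Clock lie lower in DM and lowest in DM_AngIV, Per2, Per3 and Nr1d2 lie higher in DM and highest in DM_AngIV, and Npas2 and Cry1 stay below the background line on all arrays.

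Arntl showed the widest separation. Its values were 5.72, 5.94, 5.89 and 5.57 in NC, 4.44, 4.21, 4.51 and 4.44 in DM, and 3.52, 3.64, 3.55 and 4.10 in DM_AngIV. None of the groups overlapped, and DM_AngIV replicate 4 was the highest of its group. No array of either diabetic group was above background. From 5.78 ± 0.17 (SD, n = 4) in NC the mean fell to 4.40 ± 0.13 in DM and 3.70 ± 0.27 in DM_AngIV. Arntl was at least 1.76-fold lower in DM (limma adjusted p = 0.000752) and in DM_AngIV (adjusted p = 2.53e-06), and the bound is the same for both because both lay under the background value. It had the smallest p of all 19505 genes in each of these comparisons. Between DM_AngIV and DM its log2 values differed by −0.70 ± 0.14 (SE; adjusted p = 0.253), rank 10 of all genes. That difference lies among values below background, so no fold is given for it.

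The start of Arntl carries the letters that REV-ERB and ROR proteins are known to read, and its sequence is shown for that reason. It is a RefSeq window of 250 bases before to 50 after an annotated start, at chr7:113207261-113207560 of GRCm38.p6 on the + strand. The letters TAGGTNA, searched on both strands and shown in capitals, occur 2 times in it. The window of another annotated start, at chr7:113207215-113207514, overlaps this one and holds them 1 time.
Arntl: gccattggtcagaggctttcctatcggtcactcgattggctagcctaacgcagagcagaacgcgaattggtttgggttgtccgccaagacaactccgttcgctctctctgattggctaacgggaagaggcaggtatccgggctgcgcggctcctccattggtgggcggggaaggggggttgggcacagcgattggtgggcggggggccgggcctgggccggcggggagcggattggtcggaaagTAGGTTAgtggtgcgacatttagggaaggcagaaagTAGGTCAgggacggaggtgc
Of 32851 such windows over all genes, 8.29% held these letters at least once and 0.557% held them 2 or more times. RefSeq gave windows for 9 of the 10 clock genes, and none for Per2, which was therefore not searched. No window of Clock, Npas2 or Nr1d2 held any of the 4 motifs searched: TAGGTNA, the E-box CACGTG, its variant CACGTT and the D-box TTATGNAA. No match overlapped another in the windows of the clock genes. A match describes letters only and says nothing of binding in these hearts.

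Clock, the partner of BMAL1, moved the same way over a smaller range. Its values were 7.75, 7.83, 7.87 and 7.79 in NC, 7.46, 7.23, 7.44 and 7.54 in DM, and 7.28, 7.20, 7.13 and 6.99 in DM_AngIV. NC lay above both diabetic groups without overlap, while DM and DM_AngIV overlapped. Against NC, Clock fell 1.58-fold in DM_AngIV, a log2 difference of −0.66 ± 0.10 (SE; limma adjusted p = 0.00951). In DM the difference of −0.39 ± 0.10 did not pass (adjusted p = 0.247).

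Npas2, which can stand in for CLOCK, was not above background in any group. Its mean was 4.25 ± 0.11 (SD, n = 4) in NC, against 3.94 ± 0.20 for DM and 4.04 ± 0.28 for DM_AngIV. All DM arrays lay below all NC arrays, by 0.04 at the nearest, and DM_AngIV overlapped both. DM replicate 4, at 3.64, stood apart from the other DM arrays, which lay between 4.01 and 4.08. Npas2 did not pass in any comparison (limma adjusted p = 0.559 in DM and 0.546 in DM_AngIV, both against NC).

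The period genes encode the repressors that pair with the cryptochromes. Per3 had 5.56, 4.93, 5.39 and 5.56 in NC, 6.31, 6.46, 6.03 and 5.92 in DM, and 6.74, 6.55, 6.50 and 6.39 in DM_AngIV. Every diabetic array was above every NC array, and DM and DM_AngIV overlapped slightly. Per3 was 2.27-fold higher in DM_AngIV than in NC, a log2 difference of 1.19 ± 0.15 (SE; limma adjusted p = 0.00317). In DM the difference of 0.82 ± 0.15 missed the threshold over all genes (adjusted p = 0.0985). It passed in 4 of 19 alternatives, among them a threshold of 0.1. The others were a trend and robust prior (limma adjusted p = 0.0186), leaving out genes of low expression (0.0496) and leaving out DM replicate 4 (0.0432). In the remaining 15 it did not pass, with adjusted p of up to 0.338 outside the fits on atrial signal.

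Per2 had 4.80, 4.38, 4.54 and 4.70 in NC, where no array was above background. In DM it had 5.42, 5.32, 5.11 and 5.02, and in DM_AngIV 5.71, 6.00, 5.54 and 5.68. The groups did not overlap in any pairing. Per2 was at least 1.71-fold higher in DM_AngIV than in NC (limma adjusted p = 0.00130), with rank 4 of all genes. Against NC it was at least 1.19-fold higher in DM, which did not pass (adjusted p = 0.145), and DM_AngIV was 1.43-fold above DM, which did not pass either (adjusted p = 0.488).

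Per1, which also responds to glucocorticoids, was less separated. Its values were 5.53, 5.37, 6.07 and 6.18 in NC, 6.18, 6.05, 6.00 and 5.79 in DM, and 6.00, 6.26, 6.38 and 6.46 in DM_AngIV. NC replicates 1 and 2 were low and NC replicates 3 and 4 lay among the diabetic arrays. The differences from NC were 0.22 (95% interval −0.15 to 0.58) in DM and 0.49 (0.12 to 0.85) in DM_AngIV, and neither passed (limma adjusted p = 0.764 and 0.193).

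The starts of Per3 and Per1 are shown because their D-boxes, the letters TTATGNAA in capitals, are the elements that the output factors DBP, TEF and HLF are known to bind. The Per3 window lies at chr4:151044616-151044915 and is read from the − strand, and it holds TTATGNAA 2 times. The first Per1 window, at chr11:69098699-69098998 on the + strand, holds it 1 time together with 1 E-box, CACGTG, also in capitals.
Per3: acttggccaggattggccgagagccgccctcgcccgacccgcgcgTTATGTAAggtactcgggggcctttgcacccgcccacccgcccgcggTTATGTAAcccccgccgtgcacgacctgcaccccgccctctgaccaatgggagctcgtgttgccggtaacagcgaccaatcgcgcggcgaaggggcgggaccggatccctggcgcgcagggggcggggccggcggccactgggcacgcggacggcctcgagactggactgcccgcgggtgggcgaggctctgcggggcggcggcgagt
Per1: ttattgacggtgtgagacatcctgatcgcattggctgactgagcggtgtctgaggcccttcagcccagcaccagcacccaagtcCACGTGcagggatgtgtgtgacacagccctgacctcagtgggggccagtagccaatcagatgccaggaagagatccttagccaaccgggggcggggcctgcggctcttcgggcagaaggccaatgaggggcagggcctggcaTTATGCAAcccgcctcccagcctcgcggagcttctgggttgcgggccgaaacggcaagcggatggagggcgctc
Over all windows, 3.38% held TTATGNAA and 0.161% held it 2 or more times, while 7.15% held CACGTG. A second annotated start of Per1 gave a window with no match to any of the 4 motifs.

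Of the cryptochromes, the repressors that act with the period proteins, Cry2 rose and Cry1 did not pass. Cry2 had 5.72, 6.17, 6.14 and 6.24 in NC, 6.54, 6.52, 6.43 and 6.13 in DM, and 6.88, 6.50, 6.62 and 6.71 in DM_AngIV. DM_AngIV lay above NC without overlap, with NC replicate 1 lowest, and DM overlapped both. Cry2 was 1.53-fold higher in DM_AngIV than in NC, a log2 difference of 0.61 ± 0.14 (SE; limma adjusted p = 0.0446). This call was narrow: without any one of the 8 arrays of these groups it did not pass, with differences of 0.49 to 0.67 and adjusted p of up to 0.111.

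Cry1 was not above background in any group. Its mean was 4.43 ± 0.11 (SD, n = 4) in NC, against 4.44 ± 0.38 for DM and 4.82 ± 0.12 for DM_AngIV, and DM replicate 3 was lowest at 3.89. The DM_AngIV arrays, from 4.67 to 4.94, lay above the NC arrays, from 4.31 to 4.53, but the difference did not pass (limma adjusted p = 0.243). The Cry1 window at chr10:85185005-85185304, read from the − strand, is shown as the clock gene whose start held an E-box and the variant CACGTT together.
Cry1: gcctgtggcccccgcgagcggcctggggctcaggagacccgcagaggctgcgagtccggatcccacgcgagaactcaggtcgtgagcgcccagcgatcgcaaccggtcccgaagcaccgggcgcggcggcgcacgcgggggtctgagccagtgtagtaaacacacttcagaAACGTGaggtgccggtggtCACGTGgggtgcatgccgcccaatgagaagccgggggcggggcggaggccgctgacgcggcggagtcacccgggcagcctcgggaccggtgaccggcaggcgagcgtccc
The capitals mark CACGTG and, on the other strand, CACGTT, which 4.68% of all windows held. The windows of Cry2 and Nr1d1 held CACGTT 1 time each.

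The REV-ERB genes are repressors of Arntl. Nr1d2 had 6.91, 7.13, 7.38 and 7.26 in NC, 7.81, 7.57, 7.63 and 7.64 in DM, and 7.95, 8.07, 7.80 and 7.89 in DM_AngIV. NC lay below both diabetic groups, which overlapped by a small margin. Nr1d2 was 1.69-fold higher in DM_AngIV than in NC, a log2 difference of 0.76 ± 0.12 (SE; limma adjusted p = 0.00834), and 1.41-fold higher in DM, which did not pass (adjusted p = 0.189).

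Nr1d1 had 6.74, 7.77, 7.12 and 7.35 in NC, 6.71, 7.15, 7.77 and 7.50 in DM, and 7.05, 6.83, 6.56 and 6.36 in DM_AngIV. It spread over 1.03 log2 units in NC and 1.06 in DM, the widest of the 10 genes in these groups, and all groups overlapped. The difference from NC was 0.04 (95% interval −0.46 to 0.54) in DM and −0.54 (−1.04 to −0.05) in DM_AngIV, and neither passed (limma adjusted p = 0.982 and 0.295). Its estimates therefore had the opposite sign to those of Nr1d2 in DM_AngIV, and the difference between these genes was not tested. With the atrial marker mean as a covariate, Nr1d1 was lower in DM_AngIV by 0.88 on the log2 scale (limma adjusted p = 0.0356). This fit was added after seeing the data, and it was the only 1 of 19 alternatives in which Nr1d1 passed.

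**Figure D2:**
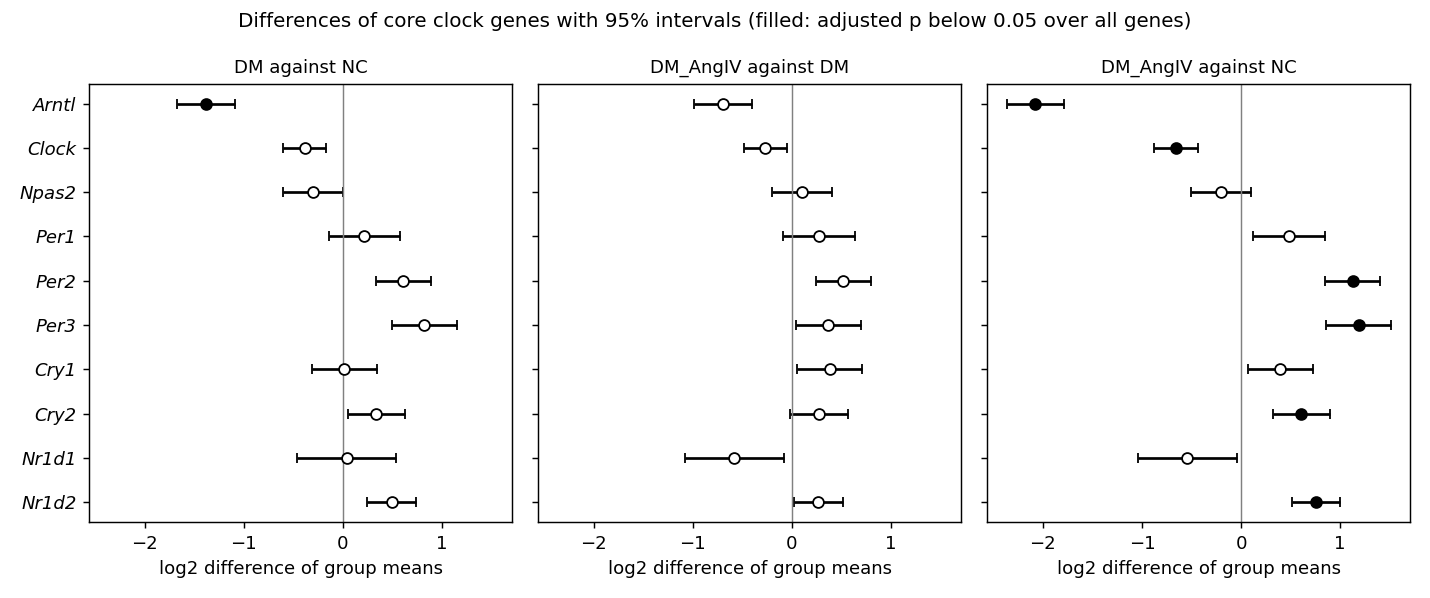
Log2 difference of group means (x axis) for the 10 core clock genes (y axis) in 3 comparisons, with 95% intervals from the fit over all genes and filled points for an adjusted p below 0.05. Arntl alone is filled in DM against NC, none is filled in DM_AngIV against DM, and 6 are filled in DM_AngIV against NC, Arntl at −2.07 and Clock at −0.66 to the left of 0 and the other 4 to the right.

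The group differences of the 10 genes were larger than those of genes at large in every comparison. Only 42.8% to 43.3% of all genes were above background on an array, so genes at large include many dim ones. Their median absolute log2 difference was 0.36 in DM against NC, 0.32 in DM_AngIV against DM and 0.63 in DM_AngIV against NC, where the medians over all genes were 0.11, 0.11 and 0.13. In DM against NC the groups did not overlap for 6 of the 10 (Per2, Per3 and Nr1d2 higher, Arntl, Clock and Npas2 lower), beside 4.54% of all genes (2.45% higher and 2.09% lower). In DM_AngIV against NC this held for 7 of the 10 (5 higher and 2 lower), beside 9.83% of all genes (5.63% higher and 4.20% lower). For DM_AngIV against DM it held for 2 of the 10, Arntl lower and Per2 higher, beside 5.01% of all genes (2.20% lower and 2.81% higher).

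Averaging DM and DM_AngIV with equal weight and setting them against NC gave calls for 5 of the 10, beside 0.631% of all genes (0.441% higher and 0.190% lower). For the same 5 genes all diabetic arrays lay apart from all NC arrays, beside 1.95% of all genes (1.06% higher and 0.887% lower), and 7 of the 10 had an unadjusted p below 0.05, beside 13.1%. Arntl and Clock were lower and Per2, Per3 and Nr1d2 higher. Per3 differed with a limma adjusted p of 0.00421, and Nr1d2 was 1.54-fold higher (0.0134) and Per2 at least 1.43-fold higher (0.00368). Clock was 1.44-fold lower (0.0182), a call that was lost without NC replicate 2, 3 or 4 (highest adjusted p 0.0686), and Arntl at least 1.76-fold lower (4.47e-06). Cry2 missed the threshold here (0.0876).

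Leaving out the 5 arrays with atrial signal, which keeps 2 NC, 1 DM and 4 DM_AngIV arrays, left 3 of the 6 genes called in DM_AngIV against NC. Arntl differed by −2.05 on the log2 scale (limma adjusted p = 0.00695), Per2 by 1.19 (0.0237) and Per3 by 1.30 (0.0342). Clock at −0.66 (0.0905) and Nr1d2 at 0.73 (0.0637) kept their size and lost the call, and Cry2 stood at 0.47 (0.215). With fewer arrays 50 genes in all were called, against 198. In DM against NC this leaves a single DM array, assumed to vary like the arrays of the other groups, so its test says little of stability; no gene was called, and Arntl stood at −1.24 (adjusted p = 0.947). With the atrial marker mean as a covariate, 6 of the 10 were called in DM_AngIV against NC, with Nr1d1 in place of Cry2 (0.104).

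Beyond the core loop, 21 regulators of the clock were listed, of which 19 were measured. They include the kinases and ubiquitin ligases that set the life of the period and cryptochrome proteins and the ROR receptors that drive Arntl. None of the 19 passed in any of the 4 comparisons (limma), where at most 1.02% of all genes did, so the count is near that of genes at large. Their median log2 difference was 0.20 in DM and 0.21 in DM_AngIV, both against NC, where the medians of all genes were 0.00 and −0.01. Ciart, the repressor CHRONO, had 4.16, 3.76, 3.89 and 5.37 in NC, 4.43, 5.50, 6.12 and 6.16 in DM, and 6.04, 5.66, 5.66 and 5.73 in DM_AngIV. The DM_AngIV arrays lay above all NC arrays, and the difference of 1.47 ± 0.36 (SE) did not pass (adjusted p = 0.0621). Usp2, a ubiquitin protease that acts on clock proteins, differed by 0.67 ± 0.15 in DM_AngIV (adjusted p = 0.0512) and 0.47 ± 0.15 in DM (0.372).

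Among 4 output factors, which pass the rhythm on through D-boxes, Tef rose in DM_AngIV, where 0.728% of all genes were called higher. Its values were 4.36, 4.62, 4.73 and 4.72 in NC, not above background, and 5.12, 5.32, 5.38 and 5.21 in DM_AngIV, at least 1.23-fold higher (limma adjusted p = 0.0128). In DM it had 5.02, 5.11, 5.31 and 5.04, at least 1.12-fold above NC, which did not pass (0.152). Dbp, another activator at D-boxes, differed by 0.87 ± 0.29 (SE) in DM (0.372) and 0.56 ± 0.29 in DM_AngIV (0.388). Hlf differed by 0.06 and 0.48 (0.962 and 0.194).

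Of 20 output genes described in heart or other tissues, 18 were measured, and 6 rose and 0 fell in DM_AngIV against NC, beside 0.728% of all genes called higher. This list, like the clock genes and the other lists, was chosen with earlier results of these data known. Its count is therefore not independent of the data. In DM against NC 0 of the 18 passed, where only 0.0154% of all genes did, so this count says little. The tetraspanin gene Tspan4 was 2.22-fold higher in DM_AngIV (limma adjusted p = 0.00196), with values of 5.45 to 5.65 in NC and 6.48 to 6.96 in DM_AngIV. Herpud1, which acts in protein quality control at the endoplasmic reticulum, was 2.13-fold higher (0.00834). Wee1, a kinase that holds back cell division, was 1.82-fold higher (0.0102), and Pik3r1, a regulatory subunit of the insulin-signalling kinase PI3K, 1.83-fold (0.0218). Dgat2, an enzyme of triglyceride synthesis, was 1.49-fold higher (0.0207) and Tcap, a Z-disc protein, 1.72-fold (0.0228). The median over the 18 was 0.38 in DM_AngIV and 0.19 in DM.

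**Figure D3:**
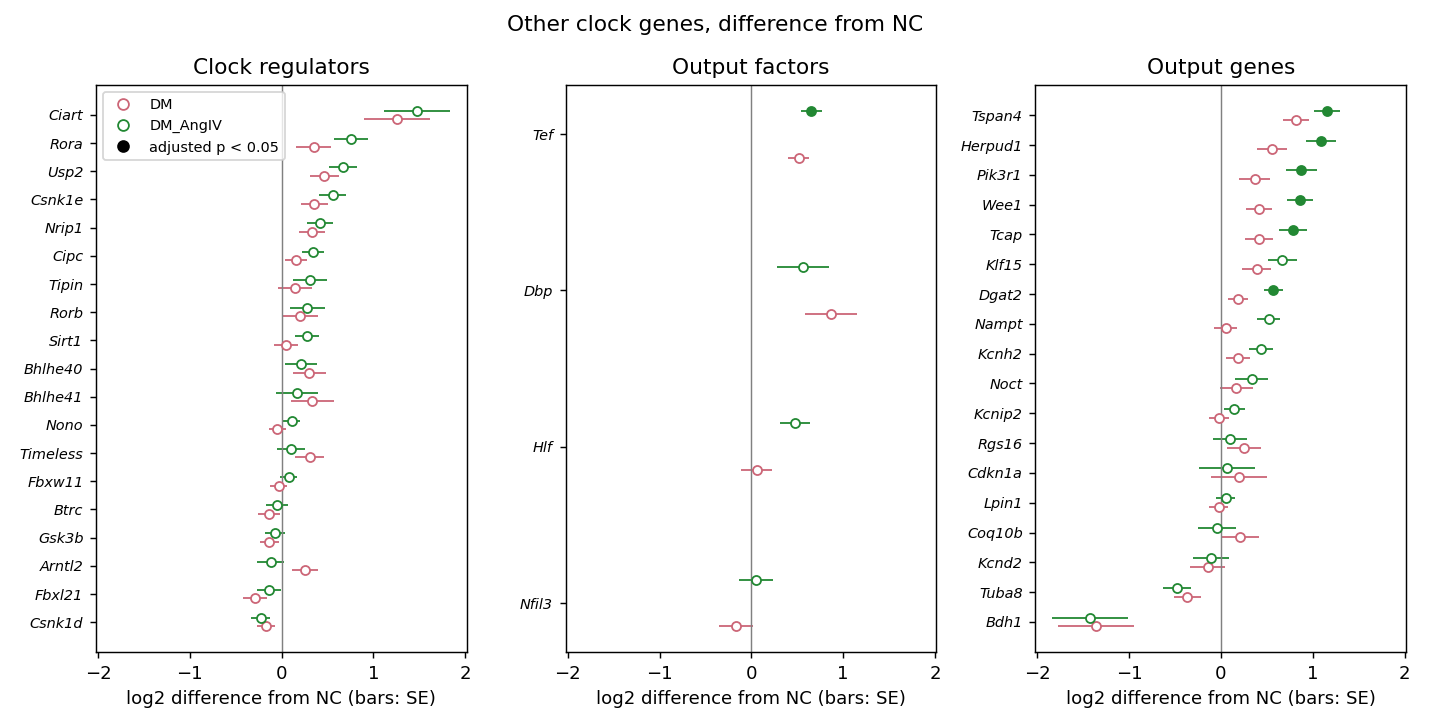
Log2 difference from NC (x axis; bars are SE) for DM (red) and DM_AngIV (green) in 19 clock regulators, 4 output factors and 18 output genes (y axis, sorted by DM_AngIV), filled where the adjusted p is below 0.05. The filled points are Tef and 6 output genes, all for DM_AngIV and all to the right of 0.

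Of 15 glucocorticoid-induced genes, a list that holds Per1, 4 rose and 1 fell in DM_AngIV against NC, beside 0.728% of all genes called higher and 0.287% lower. Zbtb16, the transcription factor PLZF, was 4.51-fold higher (limma adjusted p = 0.00317), Fkbp5, which binds the glucocorticoid receptor, 5.86-fold (0.0192), and the metallothioneins Mt1 and Mt2, 1.63-fold (0.0236) and 2.32-fold (0.0265). The phosphatase gene Dusp1 was 1.64-fold lower (0.0236). In DM against NC 0 of the 15 passed, where only 0.0154% of all genes did, so this count says little. The median log2 difference of the list was 0.43 in DM and 0.60 in DM_AngIV, where the medians of all genes were −0.001 and −0.007. In DM 11 of the 15 were above NC and 4 below, with Zbtb16 2.98-fold and Mt2 2.81-fold higher without passing. The mean of the list was 6.32 to 6.88 in NC, 7.79, 7.29, 6.88 and 6.78 in DM and 6.84 to 7.59 in DM_AngIV. The part of these genes in the clock gene results was not tested.

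By array, Nr1d1 is set here beside Dbp, Ciart and Bhlhe41, which were picked after the values were seen and are given as values only; other targets of the BMAL1 and CLOCK pair ran the other way. In DM, replicate 1 was lowest for Nr1d1 (6.71), Dbp (8.38), Ciart (4.43) and Bhlhe41, a repressor of the loop (6.82). Replicates 3 and 4 were highest for the same 4 genes, with Nr1d1 at 7.77 and 7.50 and Dbp at 9.69 and 9.56. In DM_AngIV, replicate 1 was highest for Nr1d1 (7.05), Dbp (9.36), Ciart (6.04) and Bhlhe41 (7.71), and replicate 4 was lowest for Nr1d1 (6.36), Dbp (8.23) and Bhlhe41 (7.49), though not for Ciart. Per1 had the opposite order to Nr1d1 at these arrays, highest in DM replicate 1 (6.18), lowest in DM_AngIV replicate 1 (6.00) and highest in DM_AngIV replicate 4 (6.46). Per2 (5.42), Cry2 (6.54) and Nr1d2 (7.81) were also highest in DM replicate 1, where Nr1d1 was lowest. In NC, the array with the highest Nr1d1, replicate 2, had the lowest Ciart (3.76) and Bhlhe41 (7.29). Arntl did not follow this order in DM, where replicates 1 and 4, low and high for Dbp, were both at 4.44.

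**Figure D4:**
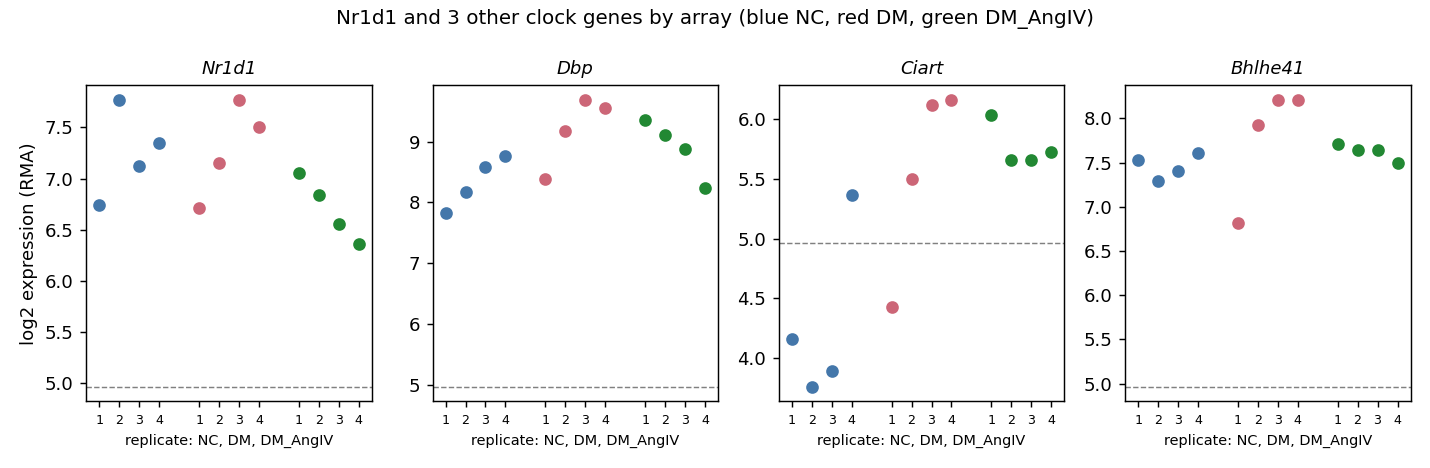
Log2 expression (y axis) of Nr1d1, Dbp, Ciart and Bhlhe41 in each array (x axis, replicates 1 to 4 of NC, DM and DM_AngIV; the order of replicates has no meaning), with a dashed line at the background of 4.96. DM replicate 1 is the lowest DM array in all 4 panels, and DM_AngIV replicate 1 the highest DM_AngIV array.

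The genes whose profile over the 12 arrays lay nearest to that of Arntl were found among 8365 other genes with a mean of at least the background value. Likeness was the root mean square difference of the values after each gene was centred on its own mean. Slc41a3, a magnesium transporter, was nearest with 0.38 log2 units, followed by Myl1, a myosin light chain (0.41), Trp53i11 (0.51), Epha4, an ephrin receptor (0.53), and Klhdc8a (0.54). For scale, Arntl itself lay 0.88 from its own mean. Arntl was not above background on any DM or DM_AngIV array, so much of the profile matched lies below background. Klhdc8a was likewise not above background on any DM_AngIV array. Slc41a3 stood at 8.12 ± 0.12 (SD, n = 4) in NC, 7.45 ± 0.44 for DM and 6.67 ± 0.11 for DM_AngIV, with a limma adjusted p of 0.00130 for DM_AngIV against NC and 0.227 for DM against NC. All 5 passed in DM_AngIV against NC, beside 1.02% of all genes, and Epha4 alone of them in DM against NC, beside 0.0154%. They were chosen by likeness to Arntl, so these calls largely follow from the choice.

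With the sign turned, Lonrf1 lay nearest (0.38), then Tspan4 (0.41), Rhobtb1 (0.43), the cardiac gene Lrrc10 (0.45) and Zbtb16 (0.45). Of these 5, Lonrf1 was not above background on any NC array. All 5 were higher in DM_AngIV than in NC (limma adjusted p between 0.00130 and 0.00393), beside 0.728% of all genes called higher. Among the core clock genes, Per3 was 0.40 and Per2 0.45 from the turned profile of Arntl, and Clock was 0.63 and Npas2 0.79 from its own profile. Slc41a3 and Lonrf1 were as near to Arntl in this measure as any clock gene was. They were picked as the nearest of 8365 genes, while the clock genes were a list of names, so the 2 are not on an equal footing. That list was itself chosen with earlier results of these data known. These genes were chosen for their likeness, so their direction, and largely their calls, follow from the choice.

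**Figure D5:**
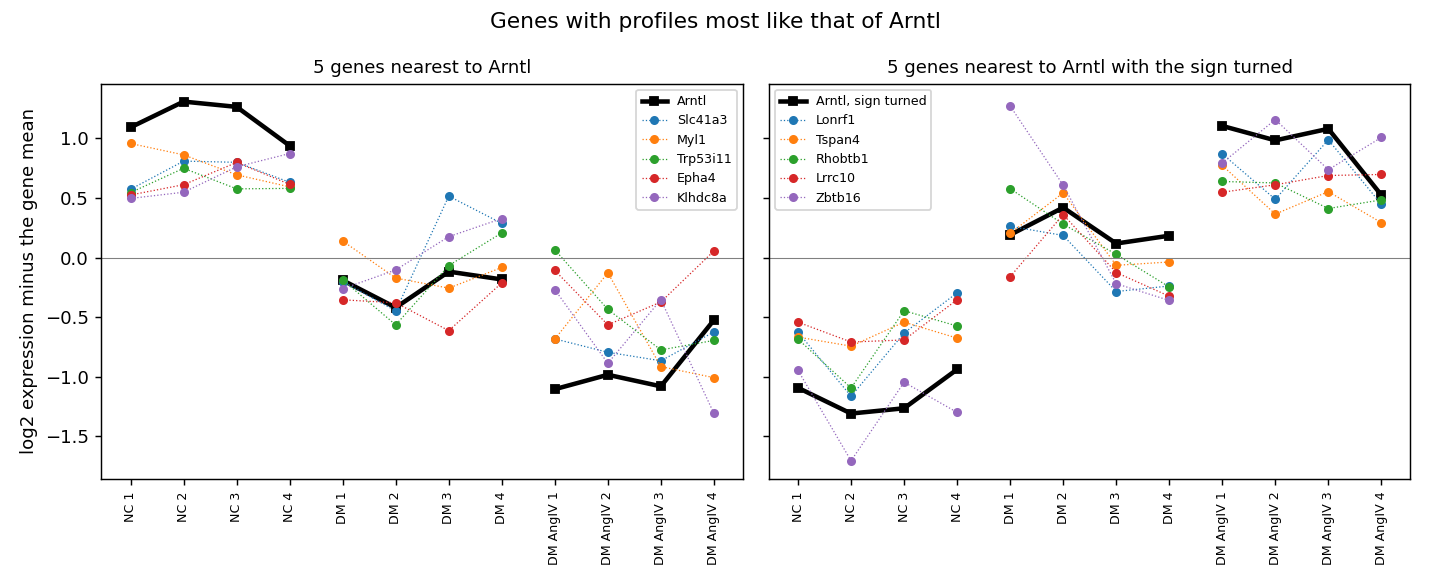
Log2 expression minus the gene's mean over the 12 arrays (y axis) in each array (x axis) for Arntl (black squares) with the 5 nearest genes, and for Arntl with its sign turned with the 5 genes nearest to that; lines join the points of a gene within a group and imply no order. The nearest genes are high in NC and low in DM_AngIV, and the turned set runs the other way.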

How the data were processed

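Expression in myocardium of 12 mice was read from the deposited table of log2 values; the submitters' processing notes name RMA (robust multi-array average), with no version. RMA sets the arrays to a common distribution, so only relative levels can be compared between arrays. Levels of different probe sets were set against each other in a few steps only. These were the background from the reporter control probe sets, the choice of 1 probe set per gene and the filter for likeness to Arntl. Probes differ in how strongly they bind, so a value under the background does not show that a transcript was absent. Of 29129 probe sets, 19572 had 1 gene symbol and 0 had several; for the 55 symbols with several, the one with the highest mean was used, which left 19505 genes. Precision is limited by the number of arrays.

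All 12 arrays entered a single limma fit (lmFit, eBayes; limma 3.58.1, R 4.3.3) of group means, from which each comparison was taken, two-sided, with Benjamini-Hochberg adjustment over all genes and a threshold of 0.05. Replicates are separate mice per the series design. The clock genes, the other lists and the tests were chosen with earlier results of these data known. The genes named were the 10 clock genes, in each of 4 lists the 2 with the smallest unadjusted p in DM and in DM_AngIV against NC and those called, and the 5 nearest to Arntl in each direction; others are said to be picked after their values were seen or stand in the lists of marker genes. On simulated data for DM_AngIV against NC, over 19505 genes with 200 changed in each of 10 runs, the fit recovered 34.6% of genes at a log2 change of 0.5, 89.8% at 1 and 99.8% at 2. Same-numbered mice did not deviate together (correlation over 0.1 in 1 of 12 pairs), so the replicate number served as a block only as an alternative. The alternatives were another threshold, a filter on dim genes, only the groups compared, the replicate block, the mean of probe sets, quantile scaling, median centring, array weights, a trend and robust prior and each array left out; the fits on atrial signal were added after seeing the data. Promoter windows are from RefSeq (GRCm38.p6). Plots used matplotlib 3.10.9 (Python 3.11.15).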

Additional observations from a re-analysis of the deposited data

Results flagged for a closer look

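In 102 sets of 4 arrays (34 named genes in 3 groups), the highest or lowest array stood apart by Dixon's 95% criterion in 4, where chance flags about 1 in 20. Npas2 was at 3.64 in DM replicate 4, with the other DM arrays between 4.01 and 4.08. Wee1 was at 6.48 in DM replicate 1, with the others between 5.88 and 5.96. Dusp1 was at 7.93 in DM_AngIV replicate 2, with the others between 7.37 and 7.46. Mt1 was at 9.87 in NC replicate 2, with the others between 9.69 and 9.72.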

How the results depend on the processing

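In DM against NC, 1 clock gene was called, and 2 were called at a threshold of 0.1, 2 without genes below the median expression, 2 with a trend and robust prior, 1 to 2 without single arrays and 0 without the arrays with atrial signal (with 1 DM array left). In DM_AngIV against DM the count was 0 under all 19 alternatives. In DM_AngIV against NC it was 6, 5 without each single array, 5 or 6 in the other fits on all arrays, and 3 without the arrays with atrial signal; in the mean of both diabetic groups it was 5, 4 to 6 without single arrays and 0 without the atrial arrays. The replicate block gave 1, 0, 5 and 4 calls in these comparisons, losing Cry2 (limma adjusted p = 0.0988) and, in the mean of both groups, Clock (0.0517). Over all genes the count of 198 in DM_AngIV against NC was 115 with the block, 509 at a threshold of 0.1, 514 with a trend and robust prior, 492 without dim genes, and as low as 81 without NC replicate 2; the count of 3 in DM against NC was 17, 28 and 20 under those 3 settings and 30 without DM replicate 4; the count of 0 in DM_AngIV against DM was 5 without DM_AngIV replicate 2; and the count of 123 in the mean of both groups was 40 with the block and 16 to 231 without single arrays (NC replicate 3 and DM replicate 4). Estimates near 0 changed sign: Cry1 in DM against NC was −0.019 with array weights, −0.016 with the atrial covariate, −0.53 without the atrial arrays and −0.090 to 0.20 without single arrays, and −0.061 in the mean of both groups without the atrial arrays; Nr1d1 in DM against NC was −0.13 to 0.23 and Npas2 in DM_AngIV against DM −0.024 to 0.21 without single arrays. The cause was not tested.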

Other observations

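Some genes outside the rule for named genes were picked after their values were seen. Bdh1, an enzyme of ketone body use that was among the output genes, had 8.00, 7.23, 7.54 and 8.23 in NC, 5.53, 5.76, 6.97 and 7.29 in DM and 7.56, 5.93, 5.86 and 5.93 in DM_AngIV. It was 2.57-fold lower in DM and 2.69-fold lower in DM_AngIV, and did not pass in either (limma adjusted p = 0.316 and 0.113). Rora, a ROR receptor that drives Arntl, had 5.75, 5.80, 6.16 and 6.04 in NC and 6.26, 6.64, 6.75 and 7.14 in DM_AngIV, without overlap, and the difference of 0.76 ± 0.19 (SE) did not pass (limma adjusted p = 0.0675).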
